A study of Sus scrofa with 12 samples.

Results

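Ephrins and Eph receptors were followed through the endothelial induction of porcine iPS cells. The 9 genes described here are 4 ligands (EFNA1, EFNA5, EFNB1 and EFNB2) and 5 receptors (EPHA2, EPHA4, EPHB2, EPHB3 and EPHB4). They were picked by name and found by their pig gene symbols, 9 of the 22 ephrin and Eph receptor genes and of the 19681 Ensembl genes measured. Expression was measured by RNA sequencing in 12 libraries, 3 biological replicates (A, B and C) in each of 4 groups. IEC2, IEC4 and IEC12 are porcine iPS cells at days 2, 4 and 12 of the induction, and AOC is a porcine endothelial cell line, labelled with the final stage of differentiation. By the study's methods, the cells received the GSK3 inhibitor CHIR99021 until day 2, then BMP4, FGF2 and VEGF until day 4, and afterwards an endothelial growth medium with added VEGF. The IEC12 libraries are from the day 12 culture as a whole, before CD31-positive cells were sorted. The iPS and sorted libraries are not analysed here. The strain, sex and age of the donor pigs, and the way the iPS cells were made, are not given in the sources used here.

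Eph receptors are receptor tyrosine kinases whose ligands, the ephrins, are themselves held on the surface of the neighbouring cell, so that signalling needs contact between cells. Ephrin-A ligands carry a lipid anchor and mainly bind EphA receptors, while ephrin-B ligands cross the membrane and mainly bind EphB receptors and EphA4. The receptor signals forward into its own cell and the ligand can signal in reverse into the cell that carries it. In blood vessels, ephrin-B2 (EFNB2) is known as a marker of arterial endothelium and its receptor EphB4 (EPHB4) of venous endothelium, and ephrin-A1 and EphA2 take part in the sprouting of new vessels.

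The values are FPKM, in which fragment counts are divided by transcript length and library size, so that levels of different genes can be set side by side. They summed to 335976.4 to 457193.7 per library. The number of fragments is not given, and the relative depth estimated from the steps of low values was lowest in replicate A of AOC (0.844) and highest in replicate A of IEC12 (1.26). Of 11 endothelial marker genes, 8 were found by symbol. They summed to 263 to 383 FPKM in the AOC libraries. The sum lay between 3.27 and 5.70 for IEC2, between 1.70 and 2.04 for IEC4, and between 0.415 and 0.531 for IEC12. KDR, the VEGF receptor that early mesoderm also expresses, made up most of the IEC2 sum, at 2.95 ± 0.898 (SD, n = 3) against 1.36 ± 0.0848 in AOC. CDH5, the endothelial cadherin, was listed at 0 in all 9 IEC libraries and was at 125 ± 18.7 (SD, n = 3) in AOC. PECAM1 (CD31) was at 114 ± 20.3 in AOC and at 0.0198 to 0.106 in the 3 IEC12 libraries. Its mean was 0.236 in IEC2 and 0.521 in IEC4. All 8 markers were thus present in AOC and summed to under 1 FPKM in the unsorted IEC12 cultures, although all IEC libraries are labelled as endothelial. By flow cytometry, which measures protein on single cells, the study did find CD31-positive cells in the day 12 culture. How that measure relates to the low PECAM1 RNA in IEC12 was not tested. The name IEC is kept here as a label. In bulk samples such as these, fewer cells of a type and less RNA per cell cannot be told apart.

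IEC4 replicate C was the highest of the 3 IEC4 libraries for 7 of the 9 genes, where it was the highest for 38.6% of 10542 genes tested between stages. It exceeded the mean of replicates A and B 2.57 times for EFNA1, 2.86 times for EPHA2, 3.87 times for EPHA4 and 3.27 times for EPHB4. For EFNA5, EFNB1, EFNB2 and EPHB3 the factor was 1.10 to 1.28. Over all genes, 14.9% exceeded this mean by more than 1.5 times. Of 8 epithelial marker genes 7 were found, with a summed FPKM of 526, 685 and 1495 in IEC4 replicates A, B and C, 108 to 144 in IEC2, 41.8 to 86.6 in IEC12 and 2.30 to 4.08 in AOC. The part of the epithelial genes in the results was not tested. The values that moved most with IEC4 replicate C are given below also without it.

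The family as a whole differed in summed level and in make-up between the groups. The FPKM of the 22 genes summed to 23.7 ± 2.40 (SD, n = 3) in IEC2, 54.2 ± 22.7 in IEC4, 67.1 ± 3.46 in IEC12 and 32.7 ± 3.25 in AOC. In IEC4 the sum was 43.3 and 39 in replicates A and B and 80.3 in replicate C. The 9 genes described here held 84.6 to 98.98% of these sums. EFNB1 was the highest of the 9 in the 3 IEC2 libraries, EFNA1 in the 3 IEC4 and the 3 IEC12 libraries, and EPHA4 in the 3 AOC libraries. Ligands outweighed receptors in every IEC library and receptors outweighed ligands in every AOC library. The 8 ephrins summed to 1.68 to 1.91 times the 14 receptors in IEC2 libraries. This factor was 3.21 to 4.802 for IEC4, 8.73 to 12.8 for IEC12 and 0.537 to 0.687 for AOC. The 4 groups did not overlap in this ratio, which is given as a description without a test.

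The 4 classes of the family held different shares in each group. Ephrin-A genes took 25.5 ± 1.91% of the family's FPKM in IEC2, 57.3 ± 3.25% in IEC4, 76.8 ± 3.72% in IEC12 and 36.2 ± 2.52% in AOC (SD, n = 3). Ephrin-B genes took 38.5 ± 0.39%, 21.4 ± 5.11%, 14.5 ± 5.20% and 2.22 ± 0.613% in the same order. EphA genes took 27.3 ± 1.33%, 16.2 ± 3.75%, 7.36 ± 1.33% and 60.8 ± 3.18%. EphB genes held the smallest share of the 4 classes in each of the 12 libraries, between 0.614% and 11.1%. Ephrin-B genes were thus the leading class in IEC2, ephrin-A genes in IEC4 and IEC12, and EphA genes in AOC.

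**Figure D1:**
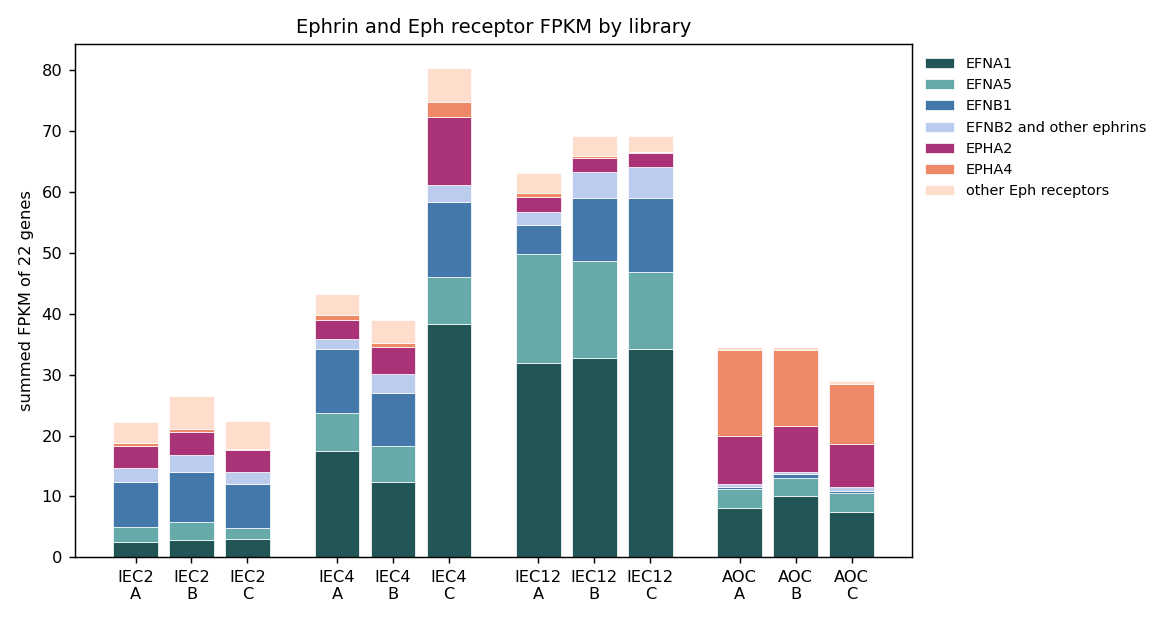
Stacked bars of the FPKM of 22 ephrin and Eph receptor genes in each of the 12 libraries, with ligands in green and blue and receptors in purple and orange tones. The bars are 23.7 FPKM high on average in IEC2 and 67.1 in IEC12, where EFNA1 alone makes up 47.4 to 50.6%, and EPHA4 and EPHA2 are the larger part of the AOC bars.

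The first question was how the ephrin-A ligands changed over the induction. EFNA1 (ENSSSCG00000006530, chr4:94666457-94673442 in the pig assembly Sscrofa11.1) encodes ephrin-A1, a ligand of EphA2 in vessels. Its FPKM in replicates A, B and C, the order used throughout, was 2.59, 2.86 and 2.96 for IEC2. It was 17.4, 12.3 and 38.3 for IEC4, 31.9, 32.8 and 34.2 for IEC12, and 8.05, 10.1 and 7.51 for AOC. The order of the groups was IEC2, AOC, IEC4 and IEC12, and only IEC4 and IEC12 overlapped. EFNA1 rose between IEC2 and IEC4, the log2 fold change being 2.49 (standard error 0.322, adjusted p = 0.000343) on the scale of log2(FPKM + 1) that is used for all fold changes here. Without IEC4 replicate C it was 2.05 (adjusted p = 0.00012). From IEC4 to IEC12 the log2 difference was 0.67 (95% interval -0.05 to 1.39, adjusted p = 0.114). This step depended on the same library, the highest of all 12 for EFNA1. Without it the log2 fold change was 1.11 (adjusted p = 0.0024), and after median-of-ratios scaling it was 0.90 (adjusted p = 0.0365). Over the whole interval from IEC2 to IEC12, EFNA1 rose by 3.16 (standard error 0.322, adjusted p = 6.55e-05), the ratio of the mean FPKM being 11.8.

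EFNA5 (ENSSSCG00000036520, chr2:112533124-112821293) encodes ephrin-A5, a ligand best known from axon guidance. Its FPKM was 2.42, 3.02 and 1.91 in IEC2, 6.22, 5.91 and 7.74 in IEC4, 17.9, 15.8 and 12.6 in IEC12, and 3.15, 2.83 and 3.01 in AOC. The 3 IEC groups did not overlap with each other, and AOC overlapped only with IEC2. EFNA5 rose in both intervals. The log2 fold change was 1.15 in the first (adjusted p = 0.00167) and 1.10 in the second (adjusted p = 0.00188), each with a standard error of 0.196. The change from IEC2 to IEC12 was 2.25 (adjusted p = 2.58e-05), or 6.31 times in mean FPKM.

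The 3 other ephrin-A genes were lower than both in every library. EFNA3 and EFNA4 lie beside EFNA1 on chromosome 4, within positions 94709941 and 94735578 of the same assembly. EFNA4 was at 0.658, 0.399 and 0 FPKM in IEC2, 0.814, 2.65 and 1.39 in IEC4, 0.729, 2.36 and 2.14 in IEC12, and 0.227, 0 and 0.249 in AOC. Its log2 fold change from IEC2 to IEC12 was 0.99 (standard error 0.336, adjusted p = 0.0372), and from IEC2 to IEC4 it was 0.92 (adjusted p = 0.0555). EFNA4 passed the filter only through replicates B and C of IEC4 and IEC12, where it is high, and without the filter neither difference was called (adjusted p = 0.0828 and 0.108). EFNA3 stayed under 1 FPKM except in IEC4 replicate C, where it was 1.05, and was listed at 0 in the 3 AOC libraries. EFNA2 was listed at 0 in the 3 IEC2 libraries and was 0.365, 1.03 and 1.40 in the IEC12 replicates. It did not pass the filter between stages. Without the filter its log2 difference was 0.09 from IEC2 to IEC4 (adjusted p = 0.801) and 0.83 from IEC4 to IEC12 (adjusted p = 0.0143). From IEC2 to IEC12 it was 0.91 (adjusted p = 0.00912).

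**Figure D2:**
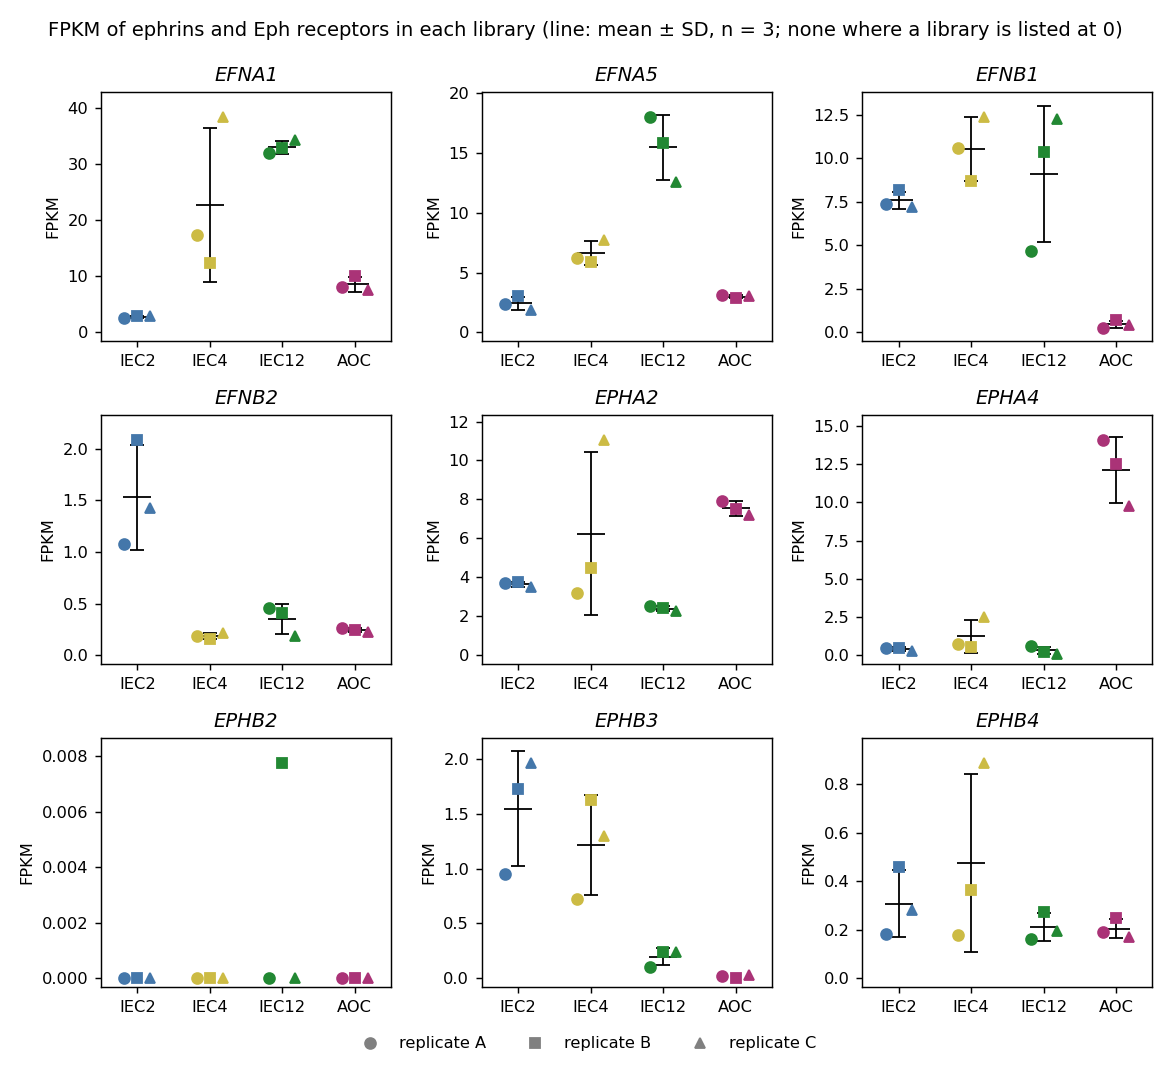
FPKM (y axis, linear, from 0 in each panel with its own scale) of the 9 genes in the 3 replicates of each group, with the mean and SD except where a library is listed at 0. EFNA1 and EFNA5 climb from IEC2 to IEC12, EFNB2 is highest in IEC2, EPHA4 stands out in AOC, and IEC4 replicate C (triangle) lies far above A and B for EFNA1, EPHA2, EPHA4 and EPHB4.

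Among the ephrin-B ligands, EFNB1 (ENSSSCG00000032728, chrX:54947339-54961403), which encodes ephrin-B1, was the most abundant in every library. Its FPKM was 7.38, 8.16 and 7.22 in IEC2, 10.6, 8.69 and 12.3 in IEC4, 4.71, 10.4 and 12.2 in IEC12, and 0.283, 0.691 and 0.422 in AOC. All 9 IEC libraries lay above all 3 AOC libraries. Between stages no change passed the test, with log2 differences of 0.41 from IEC2 to IEC4 (95% interval -0.23 to 1.06), -0.27 from IEC4 to IEC12 (-0.91 to 0.38) and 0.15 from IEC2 to IEC12 (-0.50 to 0.79). Without IEC12 replicate A, its lowest IEC library, the difference from IEC2 to IEC12 was 0.52 (adjusted p = 0.0465). EFNB1 was lower in AOC than in IEC2, IEC4 and IEC12, by log2 fold changes of -2.56, -2.97 and -2.71 (standard error 0.271, adjusted p = 5.72e-06, 1.81e-06 and 4.6e-06). On this scale it differed more between AOC and each IEC group than the 3 other ligands did. EFNB1 reached 1 FPKM only in the 9 IEC libraries, so that it passed the filter here through the groups where it is high. Without the filter its adjusted p for AOC against IEC2 was 3.42e-05. The third ephrin-B gene, EFNB3, did not pass 0.507 FPKM in any library. Without the filter its log2 difference from IEC2 to IEC12 was 0.44 (adjusted p = 0.009995), and neither shorter interval was called.

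EFNB2 (ENSSSCG00000009535, chr11:74188337-74232768), the arterial ligand, was highest at the first stage. Its FPKM was 1.08, 2.08 and 1.42 in IEC2, 0.183, 0.162 and 0.215 in IEC4, 0.462, 0.41 and 0.188 in IEC12, and 0.269, 0.246 and 0.228 in AOC. The 3 IEC2 libraries lay above the other 9. From IEC2 to IEC4, EFNB2 fell by 1.07 on the log2 scale (standard error 0.183, adjusted p = 0.00168), and its mean FPKM was 8.19 times higher in IEC2 than in IEC4. Because its values are low, the log2 fold change depends on the constant added, and was -2.46 with 0.1 in place of 1. Between IEC4 and IEC12 the log2 difference was 0.18 (95% interval -0.23 to 0.59, adjusted p = 0.438), and the 2 groups overlapped. EFNB2 was also lower in IEC12 than in IEC2 (log2 fold change -0.89, adjusted p = 0.00375) and lower in AOC than in IEC2 (-1.001, adjusted p = 0.000111). Between AOC and IEC12 it differed by -0.11 (-0.44 to 0.22, adjusted p = 0.555). EFNB2 passed the filter on low values only through the 3 IEC2 libraries, the group where it is high, and with any of these left out it was not tested. Without the filter its adjusted p was 0.00237 for IEC4, 0.00456 for IEC12 and 0.000143 for AOC, each against IEC2.

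EPHB4 (ENSSSCG00000007675, chr3:8671052-8689778), the venous receptor for ephrin-B2, stayed under 1 FPKM in all 12 libraries and did not pass the filter. Its FPKM was 0.184, 0.456 and 0.281 in IEC2, 0.177, 0.364 and 0.885 in IEC4, 0.163, 0.275 and 0.196 in IEC12, and 0.193, 0.248 and 0.172 in AOC. All 4 groups overlapped. Without the filter, its log2 difference was 0.15 from IEC2 to IEC4 (95% interval -0.23 to 0.53, adjusted p = 0.563), -0.26 from IEC4 to IEC12 (-0.64 to 0.12, adjusted p = 0.303) and -0.01 between AOC and IEC12 (-0.34 to 0.32, adjusted p = 1). Leaving out IEC4 replicate C as well, the differences between stages were -0.040 (adjusted p = 0.871) and -0.066 (adjusted p = 0.709). No change in EPHB4 was called, and the reason was not tested.

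Set side by side, EFNB2 exceeded EPHB4 in every replicate only in IEC2. The ratio of the FPKM of EFNB2 to that of EPHB4 was 5.88, 4.56 and 5.07 for IEC2, 1.04, 0.445 and 0.243 for IEC4, 2.83, 1.49 and 0.957 for IEC12, and 1.4, 0.994 and 1.33 for AOC. EFNB2 was above EPHB4 in 3 of 3 libraries in IEC2, 1 of 3 in IEC4, 2 of 3 in IEC12 and 2 of 3 in AOC. On the scale of log2(FPKM + 1), the ratio was 0.94 ± 0.13 (SD, n = 3) in IEC2, -0.29 ± 0.32 in IEC4, 0.15 ± 0.17 in IEC12 and 0.05 ± 0.05 in AOC. IEC2 lay above the other 3 groups, which overlapped with each other. In IEC2, CDH5 was listed at 0 and the 8 endothelial markers found summed to 3.27 to 5.70 FPKM. The ratio there is given without a reading of arterial identity, and which cells carried it was not tested. In AOC, where the endothelial markers were high, both genes of the pair were at or under 0.269 FPKM.

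**Figure D3:**
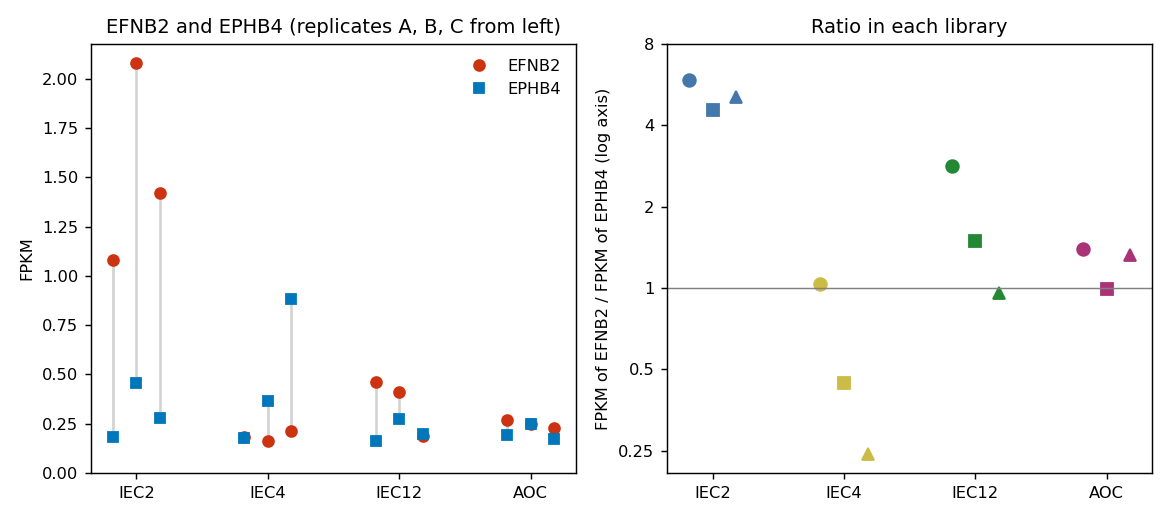
Left, FPKM of EFNB2 (circles) and EPHB4 (squares) in each library, with a grey line joining the pair. Right, the ratio of EFNB2 to EPHB4 on a log axis, with a line at 1. The 3 IEC2 libraries lie between 4.56 and 5.88, and all other libraries lie between 0.243 and 2.83.

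Other arterial and venous genes moved in both directions. Of 12 other arterial markers 10 were found, and the range of their summed FPKM was 4.07 to 5.31 for IEC2, 8.87 to 14.5 for IEC4, 14.8 to 18.6 for IEC12 and 76 to 98.9 for AOC. The AOC sum was carried by CXCR4, a chemokine receptor, at 63.5 ± 10.9 (SD, n = 3), and HEY2, a target of NOTCH signalling, at 17 ± 2.32. HEY1, a related NOTCH target, was instead lowest in AOC, with means of 11.1 ± 2.31 in IEC12, 1.69 ± 0.508 in IEC2 and 0.999 ± 0.402 in AOC. NRP1 and NOTCH4 also had lower means in AOC than in IEC2. Of 5 other venous markers 4 were found, with sums of 3.06 to 4.96, 5.25 to 8.81, 5.60 to 6.83 and 23.6 to 37 in the same order. EMCN alone made up nearly all of the AOC sum, at 30.2 ± 6.72, while NR2F2, a transcription factor of veins, was at 3.62 ± 1.07 in IEC2, 5.86 ± 0.554 in IEC12 and 0.55 ± 0.0376 in AOC. Several of these genes, such as CXCR4 and NR2F2, are also expressed outside endothelium, and the part of other cells in the sums was not tested.

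Among the EphA receptors, EPHA4 and EPHA2 had their highest group means in AOC. EPHA4 (ENSSSCG00000016230, chr15:123350867-123501872) encodes EphA4, a receptor for ephrins of both classes. Its FPKM was 14.1, 12.5 and 9.79 in AOC, against 0.468, 0.512 and 0.28 in IEC2, 0.75, 0.545 and 2.51 in IEC4, and 0.601, 0.244 and 0.123 in IEC12. All 3 AOC libraries lay above all 9 IEC libraries. EPHA4 was higher in AOC by a log2 fold change of 3.20 against IEC2, 2.62 against IEC4 and 3.31 against IEC12 (standard error 0.278, adjusted p = 1.09e-06, 6.25e-06 and 1.06e-06). Without the filter the adjusted p was 1.03e-05, 4.45e-05 and 1.02e-05. In mean FPKM, AOC was 28.8, 9.56 and 37.6 times higher. Without IEC4 replicate C, the difference from IEC4 was 2.98 on the log2 scale (adjusted p = 5.91e-07) and 18.7 times in mean FPKM. EPHA4 passed the filter through the AOC libraries and, of the IEC libraries, only IEC4 replicate C reached 1 FPKM, so that it was not tested between stages. Without the filter, its log2 difference was 0.58 from IEC2 to IEC4 (adjusted p = 0.215) and -0.69 from IEC4 to IEC12 (adjusted p = 0.127). Leaving out IEC4 replicate C as well, these were 0.22 (adjusted p = 0.423) and -0.33 (adjusted p = 0.199).

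EPHA2 (ENSSSCG00000003471, chr6:75251465-75279364) encodes EphA2, the receptor of ephrin-A1. Its FPKM was 3.73, 3.74 and 3.51 in IEC2, 3.21, 4.5 and 11 in IEC4, 2.53, 2.41 and 2.27 in IEC12, and 7.94, 7.51 and 7.18 in AOC. IEC12 lay below the other 3 groups without overlap, and AOC above IEC2 and IEC12. IEC4 overlapped with IEC2, and with AOC through replicate C, the highest of the 12 libraries. In the first interval the log2 difference was 0.49 (95% interval -0.24 to 1.22, adjusted p = 0.267), and 0.05 without that replicate. In the second, EPHA2 fell by 0.94 on the log2 scale (standard error 0.327, adjusted p = 0.0407), a call near the threshold. It was lost when any 1 library of IEC2 or IEC12, or IEC4 replicate B or C, was left out (adjusted p 0.0538 to 0.0927), and the log2 difference was -0.50 without IEC4 replicate C. EPHA2 was higher in AOC than in IEC12 by 1.33 (standard error 0.294, adjusted p = 0.00213) and than in IEC2 by 0.87 (adjusted p = 0.0211). The latter was not called without IEC2 replicate C (adjusted p = 0.0541) or without AOC replicate A (adjusted p = 0.0566). Against IEC4 the difference was 0.39 (adjusted p = 0.257), and without IEC4 replicate C it was 0.83 (adjusted p = 0.000835).

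The ligand EFNA1 and its receptor EPHA2 can be set side by side in the same way. The FPKM of EFNA1 divided by that of EPHA2 was 0.696, 0.763 and 0.842 for IEC2, 5.43, 2.75 and 3.47 for IEC4, 12.6, 13.6 and 15.1 for IEC12, and 1.01, 1.35 and 1.04 for AOC. The 4 groups did not overlap in this ratio, which has no test. IEC4 replicate C, which stood apart for each gene alone, lay between replicates A and B in this ratio.

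The remaining EphA genes were low. EPHA5, a receptor known mainly from the nervous system, was the only other Eph receptor that reached 1 FPKM in at least 3 libraries. It was at 1.18 ± 0.117 (SD, n = 3) in IEC2, 0.456 ± 0.141 in IEC4, 1.38 ± 0.384 in IEC12 and 0.0789 ± 0.0288 in AOC. It fell from IEC2 to IEC4 (log2 fold change -0.59, adjusted p = 0.0255) and rose from IEC4 to IEC12 (0.70, adjusted p = 0.0102). It passed the filter through IEC2 and IEC12, and without the filter the adjusted p was 0.03 and 0.0138. EPHA7 was at 1.04 ± 0.393 in IEC2 and 0.0234 ± 0.00794 in AOC. EPHA3 did not pass 0.36 FPKM in any library, and without the filter its log2 difference from IEC2 to IEC12 was 0.31 (adjusted p = 0.00953). EPHA10 was listed at 0 in all 12 libraries.

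EPHB3 (ENSSSCG00000026516, chr13:122467561-122488296), a receptor for ephrin-B ligands, was the highest of the EphB genes in IEC2 and decreased late. Its FPKM was 0.954, 1.73 and 1.96 in IEC2, 0.722, 1.63 and 1.3 in IEC4, and 0.105, 0.243 and 0.244 in IEC12. In AOC it was 0.0196 and 0.0285 in replicates A and C and was listed at 0 in B. IEC2 and IEC4 overlapped, with a log2 difference of -0.20 (95% interval -0.69 to 0.29, adjusted p = 0.502). Between IEC4 and IEC12, EPHB3 fell by 0.87 on the log2 scale (standard error 0.22, adjusted p = 0.0108), and from IEC2 to IEC12 by 1.07 (adjusted p = 0.00369). EPHB3 reached 1 FPKM only in replicates B and C of IEC2 and IEC4, so that it passed the filter through the groups where it is high. Without the filter the adjusted p was 0.0202 for IEC12 against IEC4 and 0.00848 against IEC2. EPHB3 thus passed the test in the later interval and EFNB2, a ligand of the same class, in the earlier one, and the difference between the intervals was not tested. EPHB3 was lower in AOC than in IEC2 (log2 fold change -1.30, adjusted p = 7.18e-05) and IEC4 (-1.10, adjusted p = 0.000257), with an adjusted p of 0.000186 and 0.000556 without the filter. Against IEC12 the log2 difference was -0.24 (adjusted p = 0.303), and with 0.1 added in place of 1 it was -1.33 (adjusted p = 0.0121).

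EPHB2 (ENSSSCG00000003527, chr6:80649098-80849979) was listed at 0 in 11 libraries and at 0.00774 FPKM in IEC12 replicate B. EPHB6 was listed at 0 in 11 libraries too. A listed 0 may also stand for an estimate that failed, and no statement is made on whether these genes were expressed. EPHB1 was at 0.0986, 0.239 and 0.243 for IEC2, 1.08, 0.726 and 0.702 for IEC4, 0.646, 0.542 and 0.269 for IEC12, and 0, 0.0118 and 0.0234 for AOC. It did not pass the filter between stages. Without the filter its log2 difference was 0.62 from IEC2 to IEC4 (adjusted p = 0.0118) and -0.31 from IEC4 to IEC12 (adjusted p = 0.1185).

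Counts of called genes are set beside the share of all genes called in the same comparison, since many genes differed between these groups. Of the 9 genes, 6 were tested between stages and 7 against AOC. From IEC2 to IEC4, 2 rose (EFNA1 and EFNA5) and 1 fell (EFNB2), where 37.3% of the 10542 genes tested were called at an adjusted p under 0.05, 24.8% higher and 12.5% lower. In the second interval, 1 rose (EFNA5) and 2 fell (EPHA2 and EPHB3), where 44.2% were called, 17.3% higher and 26.9% lower. Of these 3, only EFNA5 had an absolute log2 fold change above 1, where 22.6% of the genes tested passed both limits. After median-of-ratios scaling 2 rose in this interval and 1 fell, where 45.7% of genes were called, 23.7% higher and 22% lower. Without IEC4 replicate C 2 rose and 1 fell, where 38.3% of 10149 genes were called, 16.9% higher and 21.4% lower. Over the whole interval from IEC2 to IEC12, 2 rose (EFNA1 and EFNA5) and 2 fell (EFNB2 and EPHB3), where 43.6% were called, 24.2% higher and 19.3% lower.

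Against IEC2, 3 were higher in AOC (EFNA1, EPHA2 and EPHA4) and 3 lower (EFNB1, EFNB2 and EPHB3), where 63.8% of 11053 genes were called, 26.7% higher and 37.1% lower. Against IEC4, 1 was higher in AOC (EPHA4) and 4 lower (EFNA1, EFNA5, EFNB1 and EPHB3), where 69.1% were called, 22.1% higher and 47% lower. After median-of-ratios scaling 2 were higher and 3 lower, where 65.5% of genes were called, 32.5% higher and 32.9% lower. Without IEC4 replicate C 2 were higher and 4 lower, where 66.4% of 10760 genes were called, 23% higher and 43.4% lower. Against IEC12, 2 were higher in AOC (EPHA2 and EPHA4) and 3 lower (EFNA1, EFNA5 and EFNB1), where 58.5% were called, 22.4% higher and 36.2% lower. The 3 comparisons share the AOC libraries, and those between stages share IEC libraries with them and with each other. EFNB2, EPHA4 and EPHB3 are part of these counts although each passed the filter through the groups where it is high. The same holds for EFNB1 in the comparisons with AOC, where it did not pass 0.691 FPKM.

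The study used stricter limits between iPS cells and AOC, namely p and adjusted p under 0.001 with an absolute log2 fold change above 3. By these, EFNA1 was called from IEC2 to IEC12 (1.22% of genes called) and EPHA4 in AOC against IEC2 (5.47%) and IEC12 (4.41%). None of the 9 was called from IEC2 to IEC4 (1.18%), from IEC4 to IEC12 (0.939%) or in AOC against IEC4 (5.17%).

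**Figure D4:**
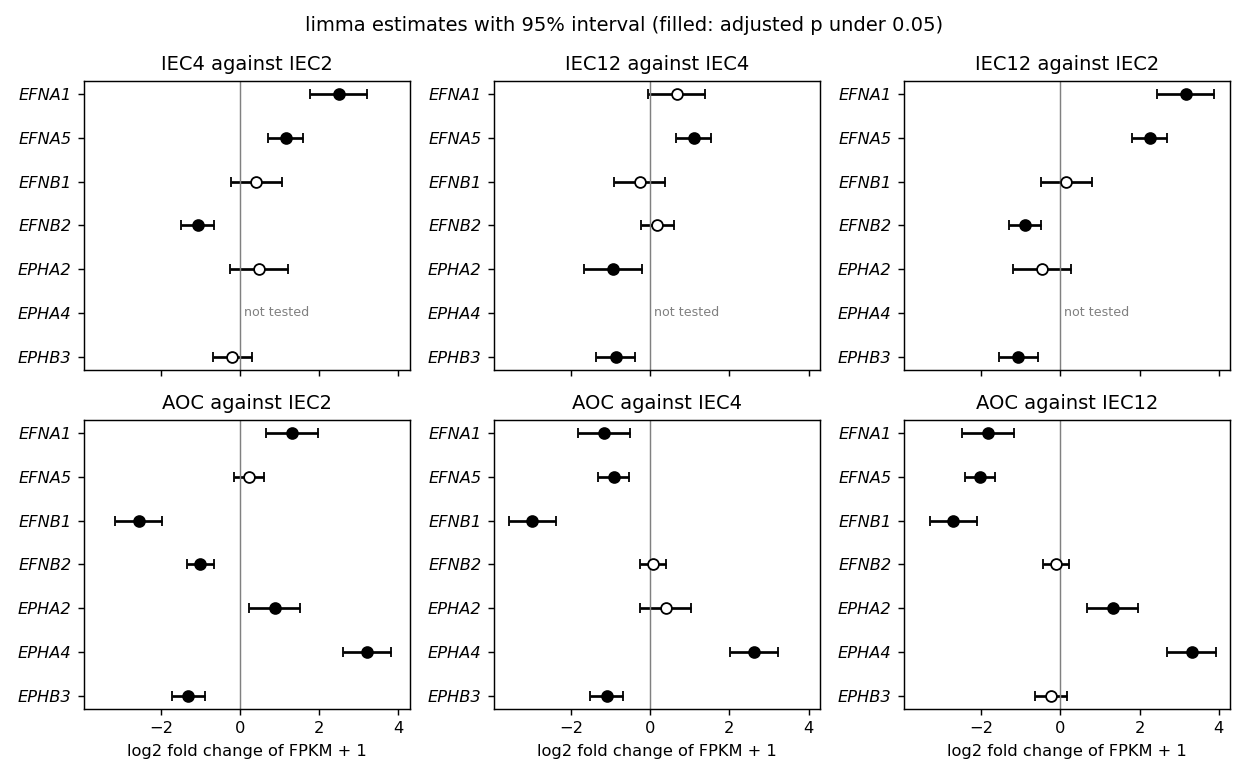
Log2 fold changes of FPKM + 1 (x axis) with 95% intervals from limma for the 7 genes that passed the filter, in 6 comparisons, filled where the adjusted p was under 0.05. EFNA1 reaches 3.16 from IEC2 to IEC12, and EPHA4 is at 2.62 to 3.31 in the 3 comparisons with AOC, where EFNB1 is at -2.97 to -2.56.

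Genes that act on Eph and ephrin signals inside the cell were described from a list of 54 adaptors, kinases, regulators of small GTPases, phosphatases and proteases. Of these, 51 were found and 35 were tested between stages. From IEC2 to IEC4, 5 rose and 4 fell (25.7% called, beside 37.3% of all genes), with a median log2 fold change of 0.07 beside 0.20 over all genes. In the second interval 9 rose and 4 fell (37.1%, beside 44.2%), the median being -0.0040 beside -0.15. In AOC against IEC12, 11 were higher and 13 lower of 36 tested (66.7%, beside 58.5%), with a median of -0.08 beside -0.21.

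NCK2, an adaptor that binds activated Eph receptors and ephrin-B ligands, rose from 2.17 ± 0.714 (SD, n = 3) FPKM in IEC2 to 12.5 ± 0.273 in IEC4 (log2 fold change 2.11, adjusted p = 0.000175). LYN, a kinase of the Src family, rose from 0.181 ± 0.0544 to 1.71 ± 0.406 (1.19, adjusted p = 0.000989). It passed the filter through the IEC4 libraries, where it is high, and its adjusted p without the filter was 0.00193. ANKS1B, a scaffold protein related to the EphA-binding ANKS1A, fell from 10.9 ± 2.80 in IEC2 to 2.54 ± 0.702 in IEC4 (-1.74, adjusted p = 0.000759). It was at 10.0 ± 2.49 in IEC12, a rise of 1.63 (adjusted p = 0.00107). CHN1, a chimaerin that links EphA4 to Rac, rose from 2.85 ± 1.01 in IEC4 to 9.603 ± 2.66 in IEC12 (1.46, adjusted p = 0.00204). SRC fell in this interval from 3.03 ± 1.10 to 0.618 ± 0.338 (-1.30, adjusted p = 0.00217). It did not reach 1 FPKM in IEC12, and its adjusted p without the filter was 0.00749.

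In AOC, ANKS1B did not pass 0.0344 FPKM and was listed at 0 in 1 library, and it was lower than in IEC12 (log2 fold change -3.41, adjusted p = 1.91e-07). It passed the filter through the IEC libraries, where it is high, and its adjusted p without the filter was 1.835e-06. TIAM1, an exchange factor for Rac, was at 5.05 ± 1.57 (SD, n = 3) in IEC12 and did not pass 0.00508 in AOC (-2.56, adjusted p = 1.29e-06). TIAM1 also passed the filter through IEC libraries, where it is high, with an adjusted p of 1.06e-05 without the filter. GRIP1, a PDZ protein that binds ephrin-B ligands, was at 0.31 ± 0.107 in IEC12 and 2.86 ± 0.326 in AOC (1.56, adjusted p = 8.06e-05). It passed the filter through the AOC libraries, where it is high, and its adjusted p without the filter was 0.00031.

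Finally, genes were ranked by how closely their pattern followed that of EFNB2 or EPHB4, by Pearson's r of log2(FPKM + 1) over the 12 libraries. The r is a description without a p, since the libraries form 4 groups. Of 9158 genes with a symbol, EPB41L4A (r = 0.965), AHR (0.956), POLQ (0.956), TSHZ1 (0.949) and LGR5 (0.947) were closest to EFNB2. Each was highest in IEC2, such as LGR5, a receptor of the WNT pathway, with a mean of 13.3 FPKM in IEC2, 0.107 in IEC4, 1.502 in IEC12 and 0.0058 in AOC. AHR, the aryl hydrocarbon receptor, had means of 15.8, 1.69, 3.36 and 1.49 in the same order. Closest to EPHB4 were BMP1 (0.898), SGMS1 (0.897), F3 (0.883), FAM3A (0.871) and LAMA3 (0.859), and all 5 were high in IEC4 replicate C. F3, the tissue factor gene, was at 11.9 FPKM there and had a mean of 4.57 in IEC4, and LAMA3, a laminin chain of epithelial basement membranes, was at 17.6 with a mean of 6.68.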

How the data were processed

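Total RNA of 12 libraries was amplified by the Smart-Seq2 protocol and sequenced. Bowtie2 2.2.3, TopHat2 2.0.12, Cufflinks 2.2.1 and the build susScr11 are named in the submitters' processing notes, and the paper names Galaxy. The authors deposited 1 FPKM value per gene and library, and any further scaling is not given in the sources used here. Symbols came from a table of gene names (13998 of 19681 identifiers), and gene positions from RefSeq for the assembly Sscrofa11.1, matched by symbol.

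limma 3.58.1 (R 4.3.3; lmFit, contrasts.fit and eBayes with trend) was run on log2(FPKM + 1) of genes with at least 1 FPKM in at least 3 libraries of the fit. Comparisons between stages used only the 9 IEC libraries, and those with AOC used all 12. P-values were adjusted over all genes tested (Benjamini-Hochberg), and calls needed an adjusted p under 0.05. The replicates are described as biological, without naming the cultures they came from, and p-values measure the spread between these libraries. The fit was tested on simulated data, whose outcome is not reported here. Other values were computed with Python 3.11.15. Relative depth came from 1101 genes under 0.1 FPKM in every library, where 81.7% of 8230 ratios lay within 0.02 (log2) of ratios of whole numbers, against 17.8% if evenly spread. The depths were fitted on these same genes, so the share is not an independent check of them.

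The genes described and the lists were chosen with earlier results of these data known. All 9 were to be named, as were other family members with at least 1 FPKM in at least 3 libraries, the 3 largest called changes of the signalling list in 3 comparisons, and the 5 genes closest in pattern to EFNB2 and EPHB4. EFNA2, EFNA3, EFNB3, EPHA3, EPHA7, EPHA10, EPHB1 and EPHB6 are named after their values were seen. Alternatives were another constant, no filter, other fits, scalings and limits, the replicate letter as a block, and each library left out.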

Additional observations from a re-analysis of the deposited data

How the results depend on the processing

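A fit of all 12 libraries for the comparisons between stages was chosen after seeing the data, as were unfiltered values without IEC4 replicate C, for 2 genes that did not pass the filter. The former gave counts within 1.5 times of those reported. The number of genes called of the 9 was 3, 3, 4, 6, 5 and 5 for IEC4 against IEC2, IEC12 against IEC4, IEC12 against IEC2, and AOC against IEC2, IEC4 and IEC12. With the stricter limits (p and adjusted p under 0.001, absolute log2 fold change above 3) it was 0, 0, 1, 1, 0 and 1. For IEC12 against IEC4 it was 1 with an absolute log2 fold change above 1 required, and 1 with only the groups compared in the fit, where 4 genes were tested. With 1 library left out the counts were 2 to 3, 2 to 3, 3 to 5, 4 to 6, 5 to 6 and 5. With the replicate letter as a block (replicate block) they were 3, 3, 4, 6, 5 and 5, as without it. Libraries with the same letter deviated from their group means with mean correlations, across genes, of -0.271 to 0.156. For single letters these ranged from -0.514 (C, AOC against IEC12) to 0.246 (A, IEC12 against IEC2). Libraries of different letters were not compared in this way, so whether a letter marks a shared batch was not tested. The log2 ratio of EFNB2 to EPHB4 without an added constant was 2.36 in IEC2, -1.05 in IEC4, 0.67 in IEC12 and 0.29 in AOC. With 1 library left out it was 0.87 to 1.001, -0.43 to -0.11, 0.07 to 0.24 and 0.03 to 0.08 with the constant of 1.

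Of 396 fold changes of single genes with 1 library left out, 2 changed sign, as did 2 of 283 under the other alternatives, and none of the 4 was called. With 1 library left out, EFNB1 ranged from -0.51 (without IEC12 replicate C) to 0.10 (without IEC12 replicate A) for IEC12 against IEC4. For IEC12 against IEC2 it ranged from -0.092 to 0.52 without the same libraries, and was -0.10 with equal totals. EFNA5 was at -0.017 for AOC against IEC2 with equal totals. The unfiltered difference of EPHB4 from IEC2 to IEC4 was 0.15, and -0.040 without IEC4 replicate C. The call of EPHA2 for IEC12 against IEC4 was also lost without the filter (adjusted p = 0.0827), with only the groups compared (0.0786) and after median-of-ratios scaling (0.0737), and that for AOC against IEC2 with equal totals (0.0812). EFNA1 in AOC against IEC4 had an adjusted p of 0.0533 after median-of-ratios scaling, and EPHA2 there one of 0.0201. The cause was not tested. The median log2 fold change of all genes moved most for AOC against IEC4, from -0.45 to -0.05 after median-of-ratios scaling. Depth is known only in relative terms, and values under 1 FPKM, as for EPHB4, limit what could be detected.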
